A study of Mus musculus with 2 samples.

Results

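The DNA replication machinery genes are 40 named genes that encode the proteins which mark, open and copy origins of replication. They were taken as a list of symbols from among 21938 protein-coding mouse genes, by their function, and all 40 symbols were found in the GENCODE M21 annotation. Their chromatin was followed in G1E, a mouse erythroid progenitor line in which Gata1, the master regulator of red cell genes, is not functional (labelled Gata1-). Open chromatin was mapped by ATAC-seq, an assay in which an enzyme tags the DNA it can reach, on 50000 cells per sample. There was 1 group of 2 biological replicates, registered as separate biosamples of a male C57BL/6J line at postnatal day 0 with no treatment named. Both samples carry the Gata1 lesion, so no value here can be compared with cells that have the factor.

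The data are the authors' peak lists on build mm10, with no read totals. The depth behind each value is therefore unknown, and absence from a list does not show that a site was closed. After overlapping peaks were merged, replicate 1 had 21194 regions and replicate 2 had 22620, of which 17425 joined regions were found in both. A promoter region is one within 1000 bp of any annotated start site of a gene. Its signal is the authors' deposited enrichment value of the strongest peak, which is not scaled between samples. Signal was therefore ranked within each replicate's own list, from percentile 0 (weakest) to 100 (strongest). The erythroid label was checked on 10 erythroid progenitor genes, among them Klf1, Tal1 and Epor, and 10 of 10 had a promoter region in both replicates. Of 15 marker genes of B cells, T cells, myeloid cells, hepatocytes and fibroblasts, 0 had one in both, and 1 fibroblast marker had one in replicate 2.

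Replication starts when the origin recognition complex (ORC), CDC6 and CDT1 load the ring-shaped MCM helicase onto DNA in G1 phase. The kinase CDC7 with DBF4 then lets CDC45 and the GINS complex join MCM, which turns the ring into an active helicase. Polymerases, the sliding clamp PCNA and its loader RFC copy both strands, and FEN1 and LIG1 finish the lagging strand. Many of these genes are textbook targets of E2F factors, which drive transcription at the entry into S phase, and progenitors of red cells divide rapidly before they mature.

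Several member promoters are shown first because the letters under their summits recur in the results. Each line is genomic sequence of mm10 (GRCm38.p6) within 100 bp of the summit of replicate 1, on the strand of the gene, limited to bases upstream of the start site and outside annotated exons. The capitals mark exact matches to E2F (TTCCCGC or TTGGCGC), NFY (CCAATCA or CCAATGA or CCAATCG or CCAATGG), ETS (CCGGAAG) or CRE (TGACGTCA), each on either strand. The first 4 lines are MCM genes and DNA polymerase alpha with E2F matches, NFY matches or both.
Mcm6, chr1:128359665-128359840, minus strand: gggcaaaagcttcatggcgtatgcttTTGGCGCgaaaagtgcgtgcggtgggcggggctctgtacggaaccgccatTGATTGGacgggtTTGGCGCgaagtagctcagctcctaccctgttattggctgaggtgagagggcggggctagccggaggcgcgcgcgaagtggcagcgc
Mcm5, chr8:75109375-75109568, plus strand: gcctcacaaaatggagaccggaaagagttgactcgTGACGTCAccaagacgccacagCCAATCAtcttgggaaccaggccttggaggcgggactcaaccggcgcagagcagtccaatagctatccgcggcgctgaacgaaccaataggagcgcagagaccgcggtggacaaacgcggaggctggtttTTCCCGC
Pola1, chrX:93632156-93632296, minus strand: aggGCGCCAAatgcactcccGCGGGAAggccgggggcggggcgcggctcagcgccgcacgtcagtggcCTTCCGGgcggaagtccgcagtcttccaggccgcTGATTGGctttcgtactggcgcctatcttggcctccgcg
Mcm4, chr16:15637401-15637534, minus strand: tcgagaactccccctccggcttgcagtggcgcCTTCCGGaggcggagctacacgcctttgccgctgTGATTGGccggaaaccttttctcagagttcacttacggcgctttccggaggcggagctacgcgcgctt
The next 3 lines belong to the 3 members with the highest promoter signal ranks, which held NFY matches and no E2F match within 100 bp of the summit.
Gins4, chr8:23237660-23237848, minus strand: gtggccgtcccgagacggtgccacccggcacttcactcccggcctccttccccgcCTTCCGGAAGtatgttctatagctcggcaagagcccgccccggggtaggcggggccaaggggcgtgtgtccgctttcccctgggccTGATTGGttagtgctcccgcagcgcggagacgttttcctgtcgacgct
Mcm3, chr1:20820313-20820494, minus strand: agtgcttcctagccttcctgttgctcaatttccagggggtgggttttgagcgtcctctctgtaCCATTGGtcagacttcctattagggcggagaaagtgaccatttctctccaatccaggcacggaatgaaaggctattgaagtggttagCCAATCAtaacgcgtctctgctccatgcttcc
Mcm10, chr2:5012792-5012926, minus strand: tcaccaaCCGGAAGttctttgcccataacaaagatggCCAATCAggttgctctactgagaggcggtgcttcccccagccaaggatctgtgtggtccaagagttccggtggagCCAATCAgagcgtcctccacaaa
The last line is the upstream part of the summit window of Mcm2, the member with the lowest rank, where none of these 4 motifs matched.
Mcm2, chr6:88898781-88898844, minus strand: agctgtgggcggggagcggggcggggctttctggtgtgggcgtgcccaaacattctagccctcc

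Nearly every replication gene had open chromatin at its promoter. A promoter region was found for 38 of 40 genes in replicate 1 (40.5% of all protein-coding genes had one), for 39 in replicate 2 (42.1% of all) and for 38 in both (39.1% of all). The exceptions were Pola2, the B subunit of DNA polymerase alpha, and Fen1, the flap endonuclease. Most of the genes have CpG-rich promoters: 32 of the 40 genes had a CpG observed to expected ratio of at least 0.6 from 250 bp before to 50 bp after the 5′ end, and 30 of those 32 had a region in both replicates. Over all 9734 protein-coding genes at or above that ratio, the share was 64.6%. The part of CpG content in the members' count was not tested. The 8 genes below it (Orc4, Rfc2, Mcm3, Mcm7, Mcm10, Gins1, Pole2 and Lig1) all had a region in each replicate at some annotated start site, against 18.7% of the 12204 coding genes below it. The open region was not always at that 5′ end, as at Rfc2 and Lig1. In 200 bp around the summits of replicate 1, only Mcm3 (0.494) and Orc4 (0.524) of the 8 were below 0.6. The rest ran from 0.678 (Lig1) to 0.845 (Pole2).

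Where a region was present, its rank was moderately high and spread widely from gene to gene. The mean of the 2 percentiles had a median of 77.4 over the 38 genes, with a range of 37.6 to 99.6. The median over all 8571 protein-coding genes with a promoter region in both replicates was 72.5. At least 90 was reached by 8 of the 38 genes (21.1%) against 20.1% of all, and over 50 by 33 (86.8%) against 76.7%. Median signal was 11.8 in replicate 1 and 12.3 in replicate 2, against 10.6 and 12.0 over all. A promoter region was thus listed for a far larger share of these genes than of coding genes at large, while the share of very strong promoters was near the background.

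**Figure D1:**
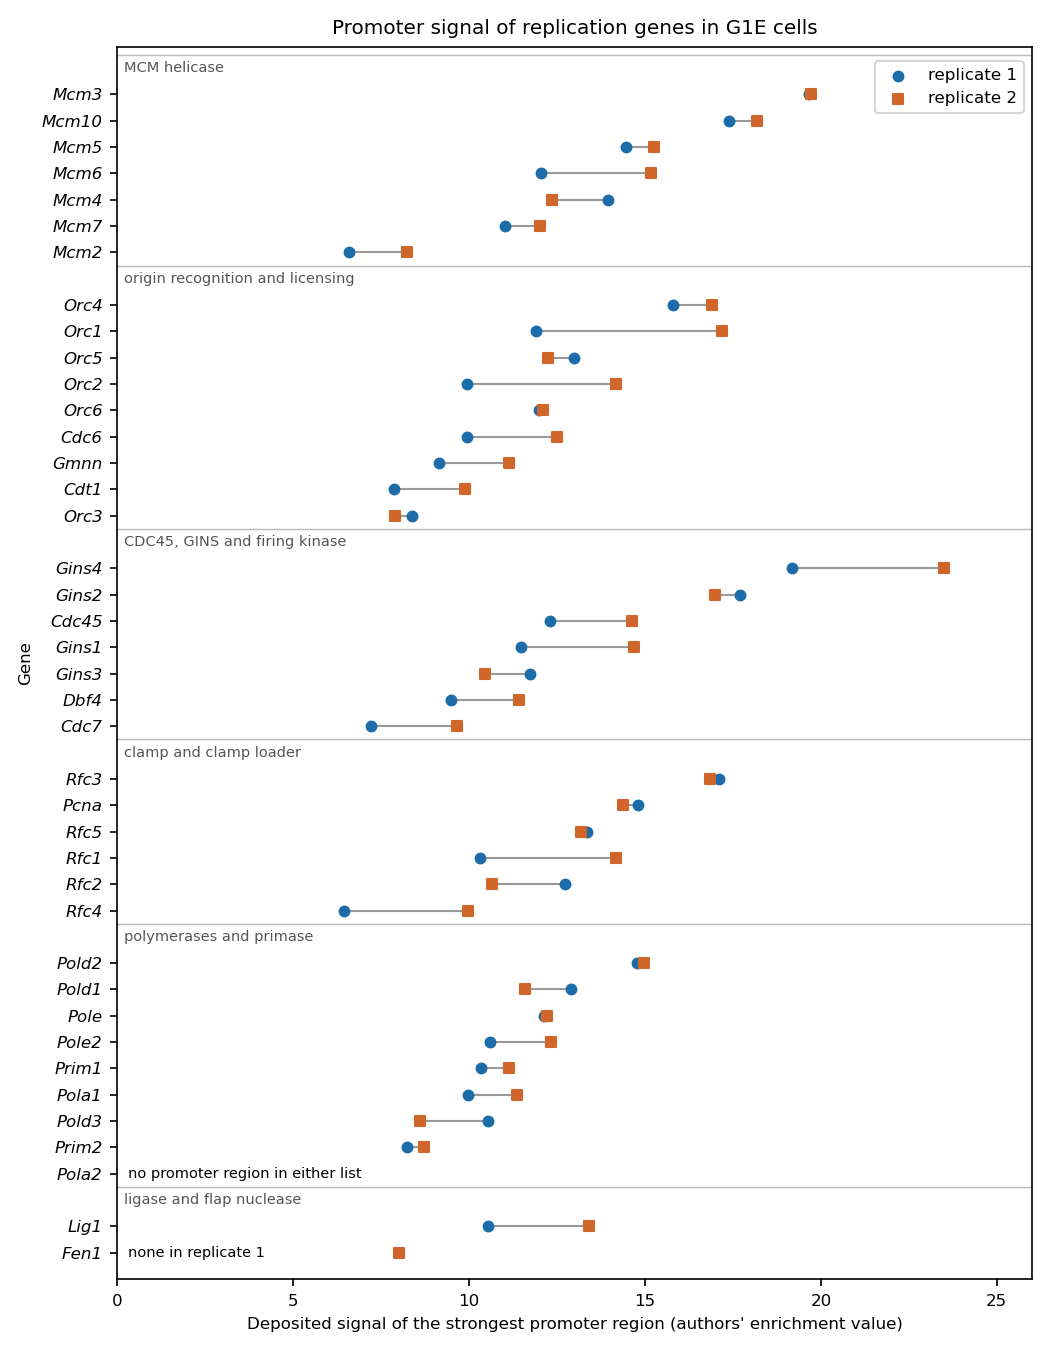
Deposited signal (horizontal axis, the authors' enrichment value, not scaled between samples) of the strongest promoter region of each replication gene, in replicate 1 (circles) and replicate 2 (squares), grouped by role. Gins4 and Mcm3 lie farthest right, Mcm2, Rfc4 and Orc3 lie at the left, Pola2 has no point and Fen1 has a point in replicate 2 alone.

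The MCM genes had the highest median rank of the 5 roles with over 1 ranked gene, at 84.9, and also the widest span. The subunits MCM2 to MCM7 form the hexameric ring, and MCM10 helps to activate it. Mcm3 had a signal of 19.7 in both replicates (percentiles 99.6 and 98.7), at chr1:20820137-20820690 in replicate 1. Mcm10 had 17.4 and 18.2 (97.9 and 96.9), at chr2:5012499-5013056. Mcm5 had 14.5 and 15.3 (91.6 and 89.7), at chr8:75109242-75109663. All 3 summits lay in intergenic sequence just upstream of the start site, by 83 and 82 bp for Mcm3, by 36 and 38 bp for Mcm10, and by 94 and 106 bp for Mcm5.

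Mcm4 had 13.9 and 12.4, Mcm6 had 12.0 and 15.2, and Mcm7 had 11.0 and 12.0. Mcm2 stood below them, with 6.59 and 8.24 (percentiles 31.6 and 43.6) at chr6:88898584-88898943. Its summits lay in the untranslated first part of the gene, 35 and 6 bp downstream of a start site. The promoter signal of Mcm3 was above that of Mcm2 by more than any difference between replicates in these 2 genes. The ring's 6 subunits are used in equal number, and the relation of promoter signal to subunit amount was not tested.

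Origin recognition and licensing genes had a median rank of 75.9 and were led by Orc4 and Orc1. Orc4, an ORC subunit, had 15.8 and 16.9 (percentiles 95.2 and 94.3) at chr2:48948880-48949636. This summit lay in an intron of Orc4, 128 and 140 bp upstream of one of its 12 annotated start sites. Orc1, the largest ORC subunit and a DNA-binding ATPase, had 11.9 and 17.2 (79.8 and 95.0) at chr4:108579020-108579781, with summits 78 and 85 bp upstream. The rank of Orc4 was thus close to equal in both replicates, and that of Orc1 was not.

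Of the other ORC genes, Orc5 had 12.98 and 12.24, Orc2 had 9.94 and 14.2, and Orc6 had 12.0 and 12.1. Orc3 was the lowest of the complex, with 8.39 and 7.90 (52.6 and 39.6) at chr4:34614713-34615112, 9 and 13 bp upstream of its start. The divergent gene Rars2 starts 13 bp upstream of Orc3, so both summits lay at the Rars2 start as much as at that of Orc3. Cdc6, the loader ATPase, had 9.95 and 12.5. Cdt1, which brings MCM to ORC, had 7.86 and 9.88, and Gmnn, which encodes geminin, the inhibitor of CDT1, had 9.15 and 11.1. The signals of Cdt1 and its inhibitor were both below the medians of the 38 ranked replication genes, 11.8 and 12.3. Among all regions of each replicate, Gmnn was at percentiles 59.9 and 68.3 and Cdt1 at 46.8 and 58.9.

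The genes that fire the loaded helicase had a median rank of 82.4 and included the strongest promoter of all 40. Gins4 had 19.2 and 23.5 (percentiles 99.4 and 99.9) at chr8:23237547-23238028, with summits 90 and 84 bp upstream of its single start site. Gins2 had 17.69 and 16.99 (98.2 and 94.6) at chr8:120588960-120589648, in its own untranslated exon 56 and 83 bp downstream. The other 2 subunits of the 4-member GINS complex were lower: Gins1 had 11.5 and 14.7, and Gins3 had 11.7 and 10.4.

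Cdc45, which binds MCM with GINS, had 12.3 and 14.6. The genes of the firing kinase were lower in rank. Dbf4, the activating subunit, had 9.50 and 11.4 (percentiles 62.6 and 70.3). Cdc7, the catalytic subunit, had 7.20 and 9.67 (39.4 and 56.7) at chr5:106964146-106964619, 49 and 69 bp upstream of a start site. Both genes of the kinase had higher signal in replicate 2, and both ranked under the median of the 38 ranked replication genes, 77.4.

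The sliding clamp gene and its loader genes had a median rank of 80.6. Rfc3, a small loader subunit, had 17.1 and 16.8 (percentiles 97.5 and 94.2) at chr5:151650708-151651422, 13 and 28 bp upstream. Pcna had 14.8 and 14.4 (92.6 and 86.3) at chr2:132252564-132253577, in its untranslated exon 23 and 22 bp downstream. Rfc5 had 13.4 and 13.2, Rfc2 had 12.7 and 10.7, and Rfc1, the large loader subunit, had 10.3 and 14.2. Rfc4 was last, with 6.45 and 9.96 (30.0 and 59.6) at chr16:23127403-23128430, 8 bp upstream in both. Its percentiles were 29.6 apart, the largest gap of the 38 genes, so that its place in the order is uncertain.

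Polymerase and primase genes had the lowest median rank of these roles, 71.3. Pold2, the second subunit of DNA polymerase delta, led with 14.8 and 15.0 (92.6 and 88.5) at chr11:5878075-5878517, 57 and 49 bp upstream. The catalytic subunit genes of the 3 replicative polymerases ranked below Pold2, with Pola1 the lowest of the 3 in both replicates. Pold1 (delta) had 12.9 and 11.6, Pole (epsilon) had 12.1 and 12.2, and Pola1 (alpha) had 9.98 and 11.4. Pole2 had 10.6 and 12.3, Prim1, the catalytic primase subunit, had 10.3 and 11.1, and Pold3 had 10.5 and 8.59 with percentiles 24.3 apart.

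Prim2, the large primase subunit, had 8.24 and 8.73 (51.2 and 48.6), but not at the same place. In replicate 1 the strongest of its 2 promoter regions was chr1:33670217-33670623, 682 bp upstream in an exon of the noncoding transcript 1700001G17Rik. In replicate 2 it was chr1:33669530-33669927, 13 bp upstream. Both regions were listed in both replicates, with signals from 7.42 to 8.73, so their order differed and their presence did not.

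Lig1, the ligase that seals Okazaki fragments, had 10.5 and 13.4. Its summits lay in an intron of the gene, 79 and 72 bp upstream of an internal start site. Fen1, which removes the flaps before ligation, had no region in replicate 1. In replicate 2 it had a region at chr19:10203862-10204323 with a signal of 8.0 (percentile 40.5), 9 bp upstream of its start site. That summit lay in an untranslated exon of Tmem258, the divergent neighbour with an annotated start 49 bp away. The exon reached nearer to Fen1 than that start. The authors' more lenient list of replicate 1 did not have the region either. Pola2 had no promoter region in either replicate, and the lenient list of replicate 1 had a weak one with a signal of 4.02. The annotated promoters of both, with CpG ratios of 1.03 for Pola2 and 0.785 for Fen1, were not poor in CpG.

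**Figure D2:**
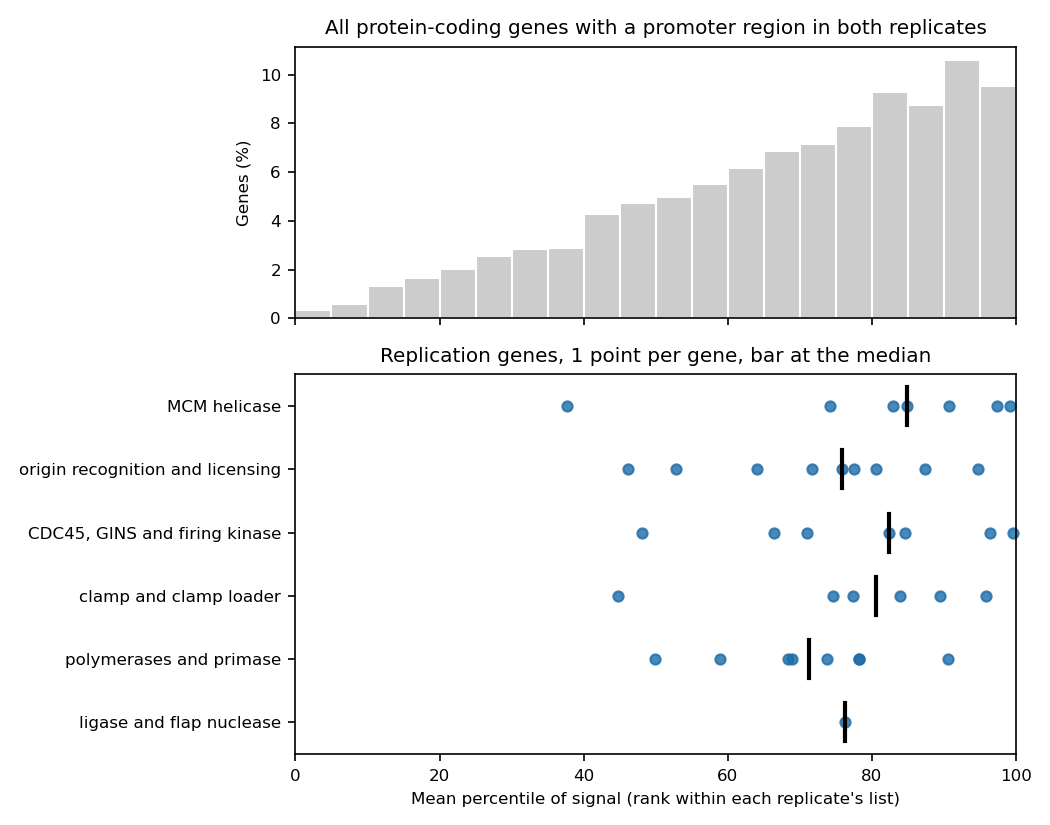
Mean percentile of promoter signal (horizontal axis, rank within each replicate's list). The upper panel shows the percent of all 8571 protein-coding genes with a promoter region in both replicates per 5-percentile bin, and the lower panel shows 38 replication genes as points with a bar at the median of each role; 1 gene lies under 40 (Mcm2) and 8 lie at 90 or above.

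Replicates ordered the genes alike, with exceptions. Over the 38 genes, which share both libraries, signal in replicate 1 and replicate 2 had a Spearman rho of 0.771 and a Pearson r of 0.844, given as a description. The median gap between the 2 percentiles of a gene was 8.0, against 7.23 over all genes with a region in both, and it exceeded 20 for Rfc4 and Pold3 alone. Signal was higher in replicate 2 for 27 of the 38 genes, but the percentile was higher in replicate 2 for 17. With 2 samples, neighbours in the order of ranks that lie a few percentiles apart cannot be placed.

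Summits sat close to annotated start sites. In 29 of 38 genes (76.3%) the summit was within 100 bp of a start site in both replicates, against 56.2% of all genes with a promoter region in both. It was upstream in both replicates for 28 genes and downstream in both for 7. The sides were not counted over all genes, so they are not shown to be particular to these 38. Pole2 had summits 267 and 265 bp downstream, in an intron. Gins1 had them 596 and 616 bp upstream, near the start of the divergent gene Abhd12 659 bp away, and its second region at an internal start had signals of 7.14 and 9.57. For Gins1, the strongest open region therefore lay nearer to its neighbour's start than to its own.

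**Figure D3:**
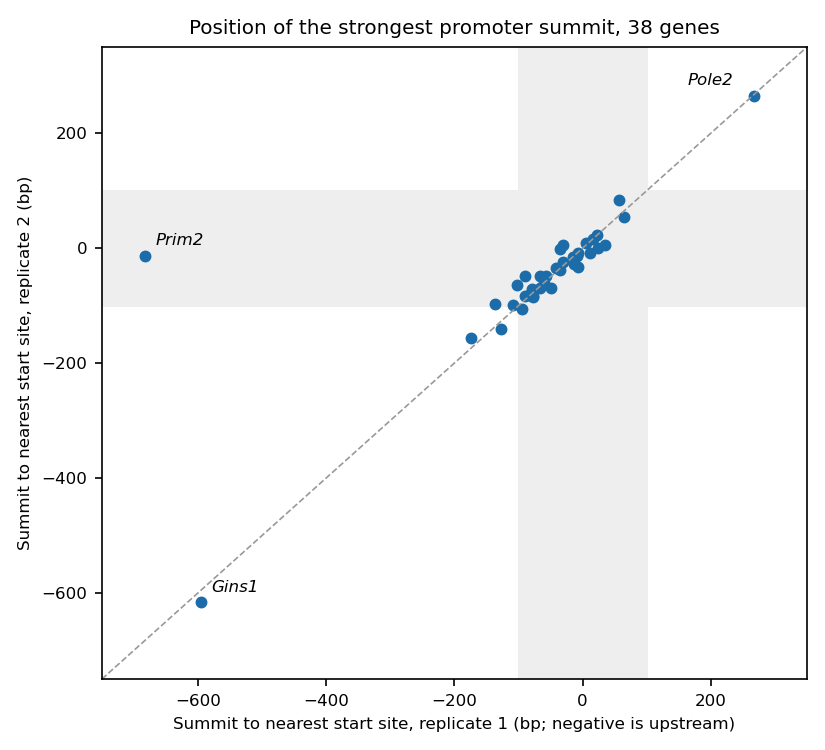
Distance in bp from the summit of the strongest promoter region to the nearest start site of the gene, replicate 1 (horizontal axis) against replicate 2 (vertical axis), negative values upstream, for 38 genes. Shaded bands mark 100 bp to either side of the start, and Gins1, Pole2 and Prim2 are the genes over 200 bp away in either replicate.

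A coding gene that starts in the opposite direction within 1000 bp was present for 12 of the 40 genes (30%). The share was 11.8% over all protein-coding genes and 24.3% over those with a promoter region in both replicates. The pairs included Orc3 with Rars2 (13 bp between starts), Fen1 with Tmem258 (49 bp), Orc1 with Prpf38a (87 bp), Pole with Pxmp2 (120 bp), Dbf4 with Slc25a40 (134 bp), Mcm7 with Ap4m1 (160 bp), Orc6 with Vps35 (163 bp), Mcm4 with Prkdc (466 bp) and Gins1 with Abhd12 (659 bp). In Orc4 with Mbd5, Cdc45 with Ufd1 and Lig1 with Zswim9 the 5′ ends overlapped. Each distance is to 1 annotated start of the partner. At Fen1 and Mcm7 an exon of the partner lay nearer than that start, so the outermost ends of these pairs are closer or overlap. Where the same region covers both starts, as at Orc3 and Rars2, the signal of one gene cannot be told apart from that of the other. Not all pairs shared their strongest region. At Mcm7 a weaker, separate region with its summit in an exon of Ap4m1 had signals of 5.10 and 4.71. Its summits also lay 15 and 13 bp upstream of the outermost 5′ end of Mcm7. The strongest Mcm7 region had its summits 430 and 447 bp downstream of that end, at an internal start site. In replicate 1 a region with its summit in an exon of Ufd1 had 6.73, beside 12.3 for Cdc45. The strongest regions of Lig1 lay at an internal start site. In 9 genes (Mcm5, Mcm7, Orc4, Gmnn, Gins1, Dbf4, Prim2, Pold3 and Lig1) both replicates held at least 2 separate promoter regions. No share over all genes is given for this count, and genes with many annotated start sites have more places for such a region.

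Of 15 motifs searched at summits, E2F had the widest gap in percentage points between the replication promoters and promoters at large. In the 200 bp around the summit of replicate 1, 16 of 38 genes (42.1%) had an exact match to TTCCCGC or TTGGCGC on either strand, against 708 of 7466 distinct promoter regions of coding genes (9.48%). These were Mcm4, Mcm5, Mcm6, Mcm7, Orc3, Orc4, Orc6, Gmnn, Cdc7, Rfc2, Rfc3, Rfc4, Pola1, Prim1, Pold3 and Pole. At summits of replicate 2 the count was 12 (31.6%) against 9.47%. In annotated promoters, from 250 bp before to 50 bp after the 5′ end and without regard to open chromatin, it was 14 of 40 (35%) against 8.37% of all 21938. There the gap was wider for SP1, with 72.5% against 43.0%, and about the same for ETS, with 37.5% against 10.8%.

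Pola1 had 3 E2F matches and Mcm6 had 2, and in the sequences above both matches of Mcm6 are TTGGCGC in the same orientation with an NFY match between them. At least 2 matches were found in 0.696% of all promoter regions. Over 400 bp, 37 E2F matches at the members had a median position 18 bp downstream of the start site nearest the summit, and the middle 50% lay from 128 bp upstream to 44 bp downstream. For the 1645 matches at all promoter regions the median was 60 bp upstream. Overlapping matches, as at Mcm3 and Rfc1, were counted separately. Of the 37, 21 lay downstream of the start site and so outside the upstream sequences printed above, as at Mcm4 (54 bp downstream), Rfc3 (37 bp), Rfc4 (21 bp) and Cdc7 (16 bp).

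The CCAAT box of NFY, a trimeric factor common at cell cycle promoters, was found at 16 genes (42.1%) against 27.8%. It was at 6 of the 7 MCM genes (all but Mcm2) and at Orc1, Orc2, Gmnn, Gins1, Gins4, Cdc45, Pcna, Pola1, Pold2 and Pole. Its 23 matches over 400 bp had a median position 45 bp upstream of the start site, against 73 bp upstream over all. Matches to E2F and NFY occurred together at 7 genes (18.4%) against 2.92% of all: Mcm4, Mcm5, Mcm6, Mcm7, Gmnn, Pola1 and Pole. Either was found at 25 genes (65.8%) against 34.4%.

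The ETS motif CCGGAAG was found at 13 genes (34.2%) against 19.6%, and Gins4 and Rfc3 had 2 matches each. At Gins4 they form the palindrome CTTCCGGAAG printed above. The GC box of SP1 (GGGCGG) was the most common match in both sets, at 26 genes (68.4%) against 60.2%. The CHR element, TTTGAA or TTCGAA, which binds the DREAM and MuvB complexes at cell cycle genes, was at 3 genes (7.89%) against 6.48%, near the background. CRE was at Mcm5 and Orc5, 2 genes (5.26%) against 3.63%, and the E-box CACGTG was at 3 genes (7.89%) against 8.55%.

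Motifs of factors that act in blood cells gave few matches at these promoters, and GATA was the one well below its background. The GATA motif (AGATAA or AGATAG or TGATAA or TGATAG) matched at Mcm7 and Pola1, 2 genes (5.26%), against 14.7% of all promoter regions. The GATA motif with a preceding TAL1 site (CTGNNNNNNNAGATAA or CTGNNNNNNNNAGATAA), every match of which is also a GATA match, was at 0 of 38 against 1.04%. RUNX (TGTGGTT) and AP-1 (TGANTCA) were at 0 against 2.68% and 3.17%, and PU.1 (GAGGAAGT) was at 2 (5.26%) against 2.41%. Of the remaining motifs, CTCF (CC, 3 bases of any kind, AG, 2 of any kind and GGC) was at 1 (2.63%) against 10.5%, NRF1 (GCGC and TGCGC with 1 base between them) at 2 (5.26%) against 7.59%, and YY1 (AANATGGCG) at 0 against 4.43%. A match is a string of letters and not evidence of a bound factor, and with 38 windows 1 gene moves a share by 2.63 percentage points.

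Base composition differed too: median GC content was 64.3% at the members and 62.5% over all, and the median CpG ratio was 0.904 and 0.782. The E2F strings hold CG, and the part of composition in the E2F share was not tested. Genes with an E2F match were not the ones with the strongest signal. Their median rank was 74.4 (n = 16), against 79.4 for the 22 without, and over all genes the values were 72.3 and 72.5. Among the 4 highest-ranked genes, Gins4, Mcm3, Mcm10 and Gins2, none had an E2F match in the 200 bp window, while Rfc4, Orc3 and Cdc7, among the 4 lowest, each had 1. The cut at 4 matters: of the other genes at 90 or above, Rfc3, Orc4 and Mcm5 each had 1, and Pold2 had none. Mcm2, the lowest of all, had none either. The width matters here: in 400 bp the count was 23 of 38 (60.5%) against 16.5% of all, and Mcm3 then had 3 matches, 22 to 45 bp downstream of its start. Those at 42 and 45 bp overlap. Cdc6 and Cdt1 also gained theirs, with matches 44 bp downstream for Cdc6 and 21 and 36 bp downstream for Cdt1. Gins2 gained a match 215 bp downstream.

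**Figure D4:**
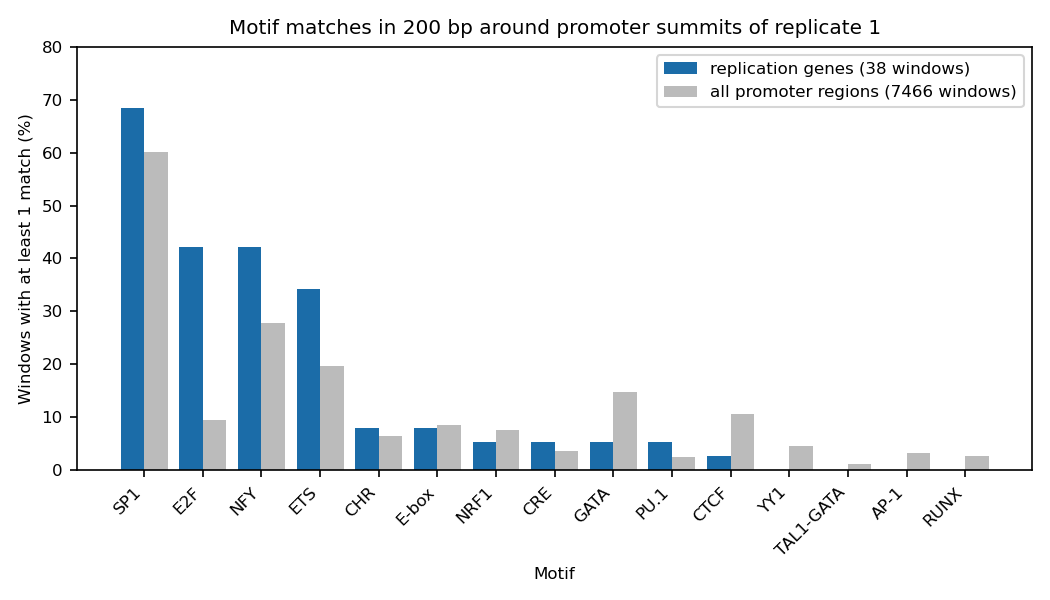
Percent of 200 bp windows at promoter summits with at least 1 exact motif match (vertical axis), for the 38 replication genes (blue) and all 7466 distinct promoter regions of coding genes (grey). E2F shows the widest gap, 42.1% against 9.48%, while GATA and CTCF are lower at the replication genes.

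Away from promoters, open chromatin near the replication genes was ordinary in amount. A distal region, over 1000 bp from every annotated start site, was found in both replicates within 50 kb of the 5′ end for 18 of 40 genes (45%), against 32.3% of all protein-coding genes and 47.4% of those with a promoter region in both replicates. There were 32 distinct regions, with a median rank of 42.9 against 51.0 for all 8227 distal regions in both. Cdc6 had 6, Cdt1 had 4, and Mcm5 and Prim2 had 3 each. Of the 32, 20 lay nearer to another coding gene and had a median rank of 52.7, up to 90.1. The 12 for which the replication gene was the nearest had a median of 31.4, and none of them passed 48.3. Nearness was judged by any annotated start site, internal ones included. The 3 Prim2 regions thus count as its own, though they lay 42.5 to 49.5 kb from its 5′ end. The same split over all coding genes is not given here, so it is not shown to be particular to these genes.

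The strongest distal region was 25.5 kb upstream of Mcm5 at chr8:75083756-75084402, with signals of 14.7 and 14.8, but it lay 9.22 kb from the start of Hmox1, the heme oxygenase gene. It is printed because it holds 3 AP-1 matches within 200 bp (capitals), a motif with no match in the 200 bp windows at member promoters. The second line is the region 3.63 kb upstream of Pola2, at chr19:5967573-5968110, with 3 GATA matches (capitals) and signals of 7.51 and 8.05. It shows a distal region in both replicates beside the gene that had no promoter region, and Pola2 is its nearest coding gene. The third is the region 26.9 kb downstream of the Mcm5 start, with signals of 6.54 and 6.90, where capitals mark a TAL1-GATA match and a further GATA match.
Mcm5 upstream, chr8:75083948-75084147, plus strand: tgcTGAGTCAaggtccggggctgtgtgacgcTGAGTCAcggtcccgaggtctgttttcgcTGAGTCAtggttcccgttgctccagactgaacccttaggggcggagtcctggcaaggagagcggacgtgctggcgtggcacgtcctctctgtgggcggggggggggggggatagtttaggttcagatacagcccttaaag
Pola2 upstream, chr19:5967736-5967935, plus strand: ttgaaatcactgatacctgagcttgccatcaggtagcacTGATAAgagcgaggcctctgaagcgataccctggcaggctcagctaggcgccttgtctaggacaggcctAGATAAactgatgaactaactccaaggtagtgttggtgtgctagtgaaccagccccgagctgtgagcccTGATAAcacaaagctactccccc
Mcm5 downstream, chr8:75136368-75136567, plus strand: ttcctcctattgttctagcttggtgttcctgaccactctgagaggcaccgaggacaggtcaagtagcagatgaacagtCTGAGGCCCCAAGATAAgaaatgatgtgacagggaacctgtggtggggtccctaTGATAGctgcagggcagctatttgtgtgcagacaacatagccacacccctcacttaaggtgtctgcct

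The next strongest distal regions mostly belonged to the neighbourhood of other genes. The region 16.1 kb upstream of Pcna (chr2:132269264-132269613, signals 10.8 and 15.3) lay in an intron of Cds2 and held a PU.1 match. Cdt1 had regions 11.2 kb (chr8:122556516-122556984, 11.2 and 10.9) and 30.1 kb upstream (chr8:122537598-122538329, 9.24 and 12.6), both nearest to Piezo1, a mechanosensitive channel gene expressed in red cells. The region 25.3 kb downstream of the Gins2 start (chr8:120563648-120564249, 9.81 and 9.92) was in an intron of Gse1. These positions place most of the strong distal signal beside neighbours of the replication genes. Whether distal regions near other coding genes are placed differently was not tested.

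Pole had a region 11.9 kb upstream (chr5:110274120-110274666, 8.74 and 10.9) in an untranslated exon of Pxmp2. Mcm2 had one 16.8 kb upstream (chr6:88915343-88916034, 9.33 and 10.2), nearest to Tpra1. For Cdc6, a region 17.7 kb downstream (chr11:98925127-98925629, 7.52 and 11.5) was nearest to Rara, a retinoic acid receptor gene. Pola2 had a further region 41.5 kb downstream (chr19:5922463-5922931, 8.30 and 9.54) in an intron of Cdc42ep2.

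The motifs of these distal regions were unlike those of the promoters. GATA matched in 21 of the 32 distal regions (65.6%), against 68.7% of all 8227, a share near the background. Of the 12 regions nearest to a replication gene, 10 had a GATA match, among them introns of Prim2, Rfc2, Rfc1, Lig1 and Mcm6. E2F matched in 0 of 32 against 1.65%, and RUNX in 8 (25%) against 11.0%. NFY matched in 1 (3.13%) against 8.40%. The contrast in GATA between promoters and distal regions is also found over all regions, with 14.7% of promoter and 68.7% of distal regions holding a match.

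**Figure D5:**
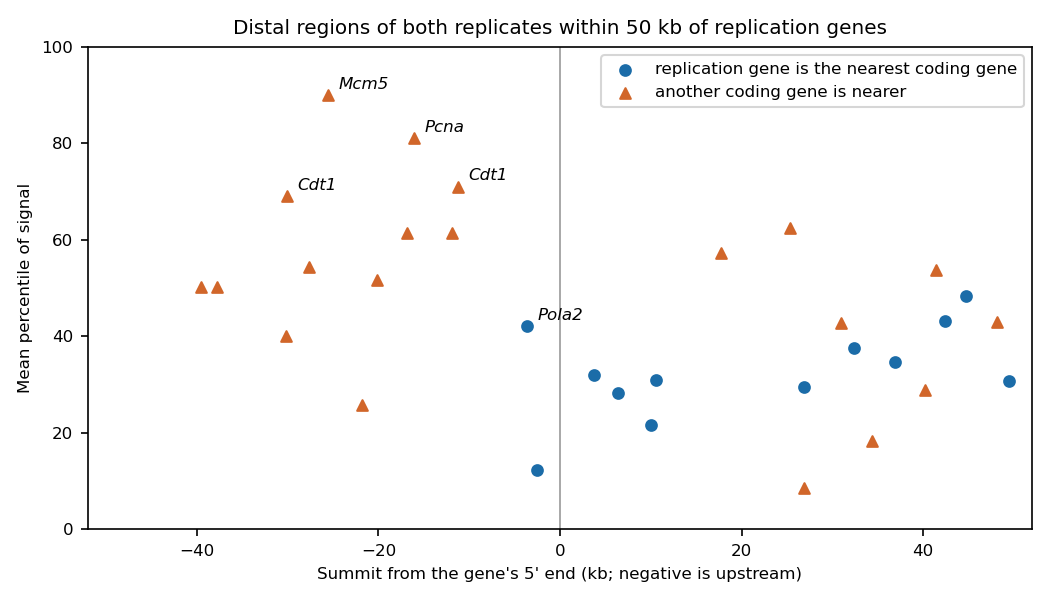
Distal regions of both replicates within 50 kb of a replication gene, by distance of the summit from the gene's 5′ end in kb (horizontal axis, negative upstream) and mean percentile of signal (vertical axis). Circles mark the 12 regions whose nearest coding gene is the replication gene, all at or under 48.3, and triangles the 20 nearer to another coding gene, which reach 90.1 upstream of Mcm5.

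Further replication genes outside the 40 were also mostly open, and the difference from the 40 was not tested. Of 39 that were found in the annotation, 34 (87.2%) had a promoter region in both replicates, with a median rank of 73.6. The highest were Ticrr, an initiation factor, at 99.7, Rpa3, a subunit of the single-strand binding complex, at 99.4, and Top1, topoisomerase I, at 98.1. At the other end, 7 of the 34 ranked below Mcm2, the lowest of the 40, among them Rrm2, a ribonucleotide reductase subunit, at 4.25 and Timeless, a fork protection factor, at 4.86, both named after their values were seen. Dna2, a nuclease and helicase of Okazaki fragment processing, and Rnaseh2c, a subunit of ribonuclease H2, had none in either replicate, although both replicates' lenient lists held one. Rnaseh2b and Atad5 had one in replicate 1 alone, and Tk1 had one in replicate 2 alone.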

How the data were processed

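ATAC-seq peaks of 2 G1E replicates were used. The authors deposited peak lists on mm10, per the labels; each peak has a signal value (the enrichment the authors' caller gave) and a −log10 p value, both as deposited. The aligner and peak caller: not given in the sources used here. The main lists were those the authors thresholded by irreproducible discovery rate, 1 per replicate, with 26083 and 27810 peaks. Overlapping or touching peaks were merged, keeping the strongest summit. Regions were placed with GENCODE M21. No test was made, since there is 1 group; counts and medians stand beside those of all protein-coding genes. The members and lists were chosen with earlier results of these data known. Full values are given for the 10 highest and 5 lowest members by mean percentile, those without a promoter region, and the 10 strongest distal regions, of which 1 is not reported here. Motifs were matched exactly on both strands in 200 bp around summits, reading the GRCm38.p6 sequence with pysam 0.24.0 under Python 3.11.15 (numpy 2.4.6, scipy 1.17.1, matplotlib 3.10.9). Merging, distance and motif steps were tested on simulated data, and the overlap between replicates was not. Alternatives were other lists, thresholds, windows, start sites and each replicate alone; members' motif positions, CpG classes and the split of distal regions by nearest gene were added after the data were seen.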

Additional observations from a re-analysis of the deposited data

How the results depend on the processing

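No paired analysis was possible because the series has 1 group. The count of replication genes with a promoter region in both replicates ran from 31 (stronger 50% of regions, where 27.2% of all genes had one) to 39 (replicate 2 alone). It was 36 with a reciprocal overlap of 50%, without Pcna and Pole, or with the outermost 5′ end alone, without Rfc2 and Lig1. The median percentile of 77.4 moved to 81.4 with unmerged summits, 86.7 in the lenient lists and 67.7 among promoter regions alone. Genes with a distal region numbered 7 (17.5%, against 16.9% of all genes) with the stronger 50% of regions, 8 (20%, against 19.9%) within 25 kb and 28 (70%, against 48.2%) within 100 kb, in place of 18. Distal regions numbered 8, 13 and 57 under the same settings and 53 in the lenient lists, in place of 32. The E2F count of 16 fell to 7 in 100 bp windows, where the share over all was 4.55%, and rose to 23 in 400 bp windows. CHR matches numbered 1 (2.63%, against 2.60% of all) in 100 bp, 8 (21.1%, against 16.5%) in 400 bp and 7 (17.5%, against 18.0%) in annotated promoters. NRF1 matches numbered 1 (2.63%, against 3.55%) in 100 bp and 4 (10%, against 5.99%) in annotated promoters. GATA matches numbered 1 (2.63%, against 8.56%) in 100 bp, 7 (18.4%, against 26.2%) in 400 bp and 5 (12.5%, against 27.6%) in annotated promoters. With the stronger 50% of regions, 23 of 39 other replication genes (59.0%) had a promoter region, against 77.5% of the 40. Under the 3 other rankings (unmerged summits, lenient lists, promoter regions alone), 55 of 114 single percentiles of members moved by less than the spread between replicates and 59 by more. The cause of these shifts was not tested. Depth is unknown, its part in the missing regions of Pola2 and Fen1 was not tested, and ranks rest on 2 samples.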
